A study of Mus musculus with 24 samples.

Results

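Intervals at gene ends are the accessible intervals whose midpoint lies within 1 kb of the first or the last coordinate of a mouse protein-coding gene, in the GRCm38 gene table (the mm10 build). By this rule 22166 of 299780 intervals of the Ctrl table (7.39%) and 21420 of 272268 intervals of the Paused table (7.87%) were gene-end intervals. Position alone chose them, so their levels and changes were not used in the choice. Nearly all intervals are 201 bases wide, which allows levels to be compared between genes. The gene table holds 21883 coding genes. Strand was known for 17491 of them, which divided the members of Ctrl into 11244 at a known 5′ end (gene starts), 6250 at a known 3′ end only and 4672 at an end of a gene without strand. In Paused these were 11077, 5844 and 4499.

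ATAC-seq reads accessibility through the Tn5 transposase, which inserts adapters into DNA free of nucleosomes, and each library here came from 50000 cells. All were E14 mouse embryonic stem cells kept in serum with LIF on gelatin. All 6 groups shared this background. WT carried no knockout, and Smad2_KO1 and Smad2_KO2 are the 2 Smad2 knockout lines. Ctrl libraries had no inhibitor, and Paused libraries had 12 hours of 200 nM INK128, an mTOR inhibitor, to induce in vitro pausing. There were 4 libraries per group and 24 in all. Whether the replicates came from separate cultures is not given in the sources used here, so p-values measure the spread between these libraries, which may be technical. How the knockouts were made is not given in the sources used here.

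Active promoters lie in a stretch of open DNA just upstream of the transcription start, where general and sequence-specific factors displace nucleosomes. CpG-rich promoters are open in most cell types, whereas many CpG-poor promoters are open only where their gene is used, and 3′ ends are as a rule much less open than starts. Smad2 is a receptor-regulated transcription factor that carries Nodal and activin signals to the genome, mostly at enhancers. Inhibition of mTOR, the kinase that couples growth to nutrients, puts embryonic stem cells into a reversible, diapause-like state of slow growth.

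The sequences below are the 250 bases before the start of 5 genes, printed because an interval of each carries 1 of the differences described further on. Pnpla1 and Plagl1 were more open in both knockout lines, Tmem54 and Cavin1 less open, and Serpinh1 was higher in paused than in untreated WT cells. They come from RefSeq (GRCm38.p6) and are written 5′ to 3′ on the strand of the gene. The windows are chr17:28858161-28858410 (plus strand) for Pnpla1, chr10:13090582-13090831 (plus) for Plagl1, chr4:129105280-129105529 (plus) for Tmem54, chr11:100970618-100970867 (minus) for Cavin1 and chr7:99353240-99353489 (minus) for Serpinh1. The windows of Pnpla1 and Tmem54 end at a RefSeq start other than the one in the gene table, further inside the gene for Pnpla1 and a single base away for Tmem54. Capitals mark matches, on either strand, to GGGCGG (bound by the Sp and Klf families), CCAAT (NF-Y), CACGTG (E-box) and CAGAC (Smad proteins).
Pnpla1: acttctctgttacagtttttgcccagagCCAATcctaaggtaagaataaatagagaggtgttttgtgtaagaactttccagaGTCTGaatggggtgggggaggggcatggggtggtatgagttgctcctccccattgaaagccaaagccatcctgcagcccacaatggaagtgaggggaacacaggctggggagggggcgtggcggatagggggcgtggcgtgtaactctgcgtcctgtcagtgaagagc
Plagl1: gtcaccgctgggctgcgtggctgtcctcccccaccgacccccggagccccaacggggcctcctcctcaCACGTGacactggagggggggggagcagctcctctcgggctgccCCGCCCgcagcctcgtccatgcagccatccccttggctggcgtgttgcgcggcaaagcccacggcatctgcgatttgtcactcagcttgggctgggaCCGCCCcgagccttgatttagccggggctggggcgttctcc
Tmem54: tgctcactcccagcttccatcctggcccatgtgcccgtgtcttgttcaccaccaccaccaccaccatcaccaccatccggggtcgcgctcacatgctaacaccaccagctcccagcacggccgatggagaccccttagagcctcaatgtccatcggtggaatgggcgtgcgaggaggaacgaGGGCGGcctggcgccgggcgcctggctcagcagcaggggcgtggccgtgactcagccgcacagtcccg
Cavin1: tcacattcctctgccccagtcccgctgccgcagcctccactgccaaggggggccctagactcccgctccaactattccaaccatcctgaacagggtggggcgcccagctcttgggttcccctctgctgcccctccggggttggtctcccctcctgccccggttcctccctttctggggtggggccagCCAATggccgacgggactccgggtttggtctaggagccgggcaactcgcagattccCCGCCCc
Serpinh1: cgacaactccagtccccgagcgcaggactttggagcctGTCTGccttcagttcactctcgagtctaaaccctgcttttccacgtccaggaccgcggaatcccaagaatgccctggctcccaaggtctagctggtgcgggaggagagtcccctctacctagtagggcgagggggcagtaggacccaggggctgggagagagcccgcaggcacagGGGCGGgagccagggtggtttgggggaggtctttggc
The Pnpla1 window held 1 CCAAT and 1 CAGAC match and no GGGCGG, and had 5 CpG and 54% GC. Plagl1 held 19 CpG, 2 GGGCGG matches and 1 CACGTG. Tmem54 held 18 CpG and 1 GGGCGG, Cavin1 held 12 CpG with 1 GGGCGG and 1 CCAAT, and Serpinh1 held 11 CpG with 1 GGGCGG and 1 CAGAC. A match is a description of the letters and not a bound site.

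Reads in the deposited intervals ran from 11.8 to 16.5 megareads (M) per library in Ctrl and from 11.5 to 20.0 M in Paused, of which 2.57 to 3.69 M and 3.06 to 4.63 M lay at gene ends. All Smad2_KO1 libraries of Paused (at least 14.9 M) exceeded all WT libraries in depth (at most 14.8 M), and the part of depth in the results was not tested. Libraries of Smad2_KO1 and Smad2_KO2 with the same replicate number resembled each other closely. A chi-square statistic per degree of freedom on their reads, which is 1 where only counting noise separates libraries, was 1.02 to 1.27 in Ctrl and 1.00 to 1.07 in Paused. Pairs of libraries from 1 line had 1.11 to 1.74 and 1.11 to 1.92, and a WT and a knockout library of the same number had 1.95 to 2.53 and 2.21 to 2.81. Smad2_KO1 and Smad2_KO2 libraries of different numbers had 1.12 to 1.53 and 1.10 to 1.49. Pairs within a knockout line had 1.11 to 1.43 and 1.11 to 1.48, so the lines differed little more than libraries of 1 line. Counts of changed intervals are therefore also given with the knockout libraries of each number averaged to 1 sample. The stem cell markers Sox2, Nanog, Zfp42, Esrrb, Tfcp2l1 and Utf1 had gene-end intervals in both tables. Their mean levels were 382.6, 244.9, 515.1, 47.3, 200.1 and 396.5 in Ctrl. Klf4 had an interval in Ctrl alone, Tdgf1 in Paused alone, and Pou5f1 and Dppa5a had none in either table, so they were not analysed here. The gene-end interval of Smad2 was not called between knockout and WT in Ctrl (log2 0.01 and -0.02, SE 0.09, limma adjusted p = 0.98 and 0.911) or in Paused (-0.12 and -0.16, limma adjusted p = 0.394 and 0.238). Accessibility there does not check the knockout.

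Gene ends were more open than the rest of the accessible genome because of gene starts, while 3′ ends were not. The median level of gene-end intervals was 86.7 normalized reads in Ctrl, against 21.5 for all other intervals, and 113.8 against 24.5 in Paused. A normalized read here is a read divided by 1 scaling factor per library, and the level of an interval is its mean over the 12 libraries of its table. At gene starts the median was 178.1 in Ctrl and 223.8 in Paused. The 3′ ends, with 20.8 and 24.2, were at the level of other intervals. Ends of genes without strand, which mix both kinds, had 73.2 and 97.5. Within the starts the spread was wide, from 20.1 at the 10th to 431.1 at the 90th percentile in Ctrl.

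The profile along the gene was narrow. The highest median lay in the 250 bases before the start, with 238.9 over 4740 Ctrl intervals and 288.2 in Paused. In the next 250 bases, inside the gene, it was 169.5 in Ctrl, and from 750 to 1000 bases inside it was still 74.1. On the upstream side it had already fallen to 21.3 at the same distance. These are medians of separate intervals and not the length of an open stretch. A known 5′ end here is the outermost coordinate of its gene. Other starts of the gene can thus lie only on the inner side, and their part was not tested. Intervals just inside the 1 kb limit, 900 to 1000 bases from an end, had a median of 23.6 in Ctrl and 27.98 in Paused. Those just outside it, 1000 to 1100 bases away, had 25.6 and 30.1, and the 7285 Ctrl intervals within 100 bases of an end had 207.7.

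**Figure D1:**
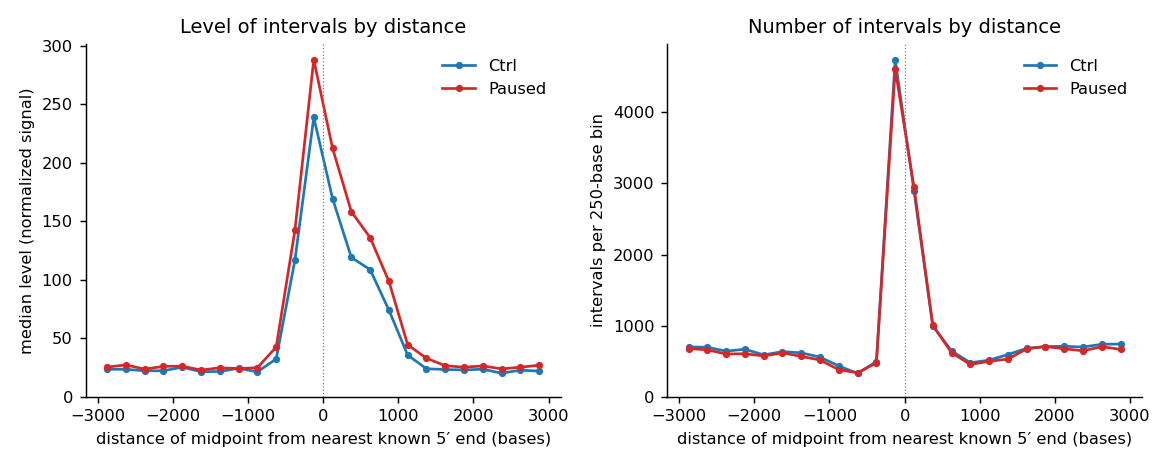
Median level in normalized reads (left) and number of intervals (right) in 250-base bins of the distance between interval midpoint and nearest known 5′ end, negative values being upstream. Both tables peak in the bin just before the start, at 238.9 in Ctrl and 288.2 in Paused, and levels fall off faster upstream than inside genes.

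Of the 21883 coding genes, 16085 (73.5%) had an interval at either end in Ctrl and 15869 (72.5%) in Paused. With strand known, 66.4% of starts and 37.0% of 3′ ends had one in Ctrl, and 65.8% and 34.9% in Paused. In Ctrl as in Paused, 2323 intervals lay at the ends of at least 2 genes, and these were more open than the others, with medians of 190.3 against 78.9 in Ctrl and 230.3 against 104.2 in Paused. Of them, 862 in Ctrl and 855 in Paused lay at 2 or more known 5′ ends, with medians of 293.5 and 347.3. Intervals at 1 known 5′ end had 168.6 and 213.3. The members held 22.8 ± 1.39% of the signal of WT libraries in Ctrl and 25.2 ± 1.87% in Paused (SD, n = 4).

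In Ctrl the highest mean level, 921.2, was at Cdca2, whose product recruits a phosphatase to chromatin in mitosis. It was followed by Zfp960, a zinc finger gene, with 917.7. M6pr, the mannose 6-phosphate receptor that sorts lysosomal enzymes, had 916.8, Map3k3, a kinase of MAP kinase cascades, 914.9, and Rab5b, a GTPase of early endosomes, 914.3. None of the 5 was called changed by the knockout in Ctrl. In Paused the highest was Tomm40, the pore of mitochondrial protein import, with 975.8, then Rab40c with 954.3, Rab5b with 946.3, Zfp960 with 933.9 and the phosphoinositide phosphatase gene Mtmr4 with 925.9. Rab40c was lower in both knockout lines in Paused. WT had 1095, 1050, 972.1 and 1107 there, Smad2_KO1 905.5, 936.1, 868.1 and 920.7, and Smad2_KO2 849, 908.1, 877.9 and 962.7, and the knockout libraries all lay below WT. The log2 differences were small (-0.22 and -0.23, SE 0.06, limma adjusted p = 0.0147 and 0.00967). That call was lost without WT replicate 4 (larger limma adjusted p of the lines 0.0519) and without Smad2_KO1 replicate 3 (0.0612). Zfp960 was lower too, with log2 -0.21 in both lines (limma adjusted p = 0.0135 and 0.0141) and lost its call without replicate 2 of Smad2_KO1 (0.064) or of Smad2_KO2 (0.0689). Rab5b and Tomm40, not called here, were called lower under the other scalings and by edgeR and DESeq2, with larger adjusted p of 0.0231 and 0.0303 under size factors.

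CpG content went with openness and with the share of called promoters. RefSeq gave a 300-base promoter window, from 250 bases before to 50 after the start, for 17491 genes (79.9%). In the quartile with the fewest CpG (0 to 4), 8.83% of windows held an interval midpoint in Ctrl, and their median level was 31.4. The next quartiles had 40.0%, 68.6% and 67.0%, with median levels of 161.8, 259.6 and 252.5. GGGCGG was present in 67.6% of Ctrl windows with an interval and in 29.2% of those without one (46.3% of all windows). CCGGAAG, the Ets site, was in 19.8% and 5.54% (11.9% of all), and TATAAA, the TATA box, in 6.00% and 19.3% (13.3%). The Smad site CAGAC was as frequent with an interval (48.5%) as without one (48.9%). These motifs were searched on both strands, none contains another, and a short motif such as CAGAC occurs often by letter composition alone.

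Loss of Smad2 was next compared with WT within each treatment. An interval was called when limma's adjusted p was under 0.05 against WT in each knockout line, with the same sign. In bulk samples, fewer cells with an open interval and less openness per cell cannot be told apart. Both lines share the WT libraries, so their overlap is no independent support. In Ctrl, 822 of 21498 tested gene-end intervals were called (3.82%), 358 higher and 464 lower in the knockouts. Of all tested Ctrl intervals 7.15% were called, 3.95% higher and 3.20% lower. The members' shares were 1.67% higher and 2.16% lower. In Paused, 2507 of 20987 were called (11.9%), 852 higher and 1655 lower, where all intervals had 13.9% called, 9.01% higher and 4.92% lower. With the knockout libraries of each number averaged, and so a single contrast with WT, the members' count in Ctrl became 1667 (663 higher, 1004 lower). Over all tested Ctrl intervals that contrast called 36791 in place of 20159 (13.0%, with 7.71% higher and 5.34% lower). In Paused it called 3193 members (1206 higher, 1987 lower) and, over all intervals, 51651 in place of 36293 (19.8%, with 13.2% higher and 6.61% lower). All 8 knockout libraries lay on 1 side of all 4 WT libraries at 541 of the 822 Ctrl intervals and 1510 of the 2507 Paused ones. Among all called intervals the share was similar, with 13177 of 20159 in Ctrl and 22617 of 36293 in Paused.

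These counts moved with single libraries. In Ctrl they fell to 527 without WT replicate 4, to 540 without Smad2_KO1 replicate 1 and to 544 without Smad2_KO2 replicate 1. In Paused they fell to 1656 without WT replicate 1, to 1645 without WT replicate 4, to 1480 and 1624 without Smad2_KO1 replicates 2 and 3, and to 1607 without Smad2_KO2 replicate 2. Without WT replicate 3 they rose to 3810. In the order given, the calls over all tested intervals became 13969, 14274 and 14950 in Ctrl, in place of 20159. In Paused they became 29512, 28173, 25379, 27451, 25212 and 39117, in place of 36293. Members called lower in Paused, 1655 with all libraries, were 916 without WT replicate 1, 979 without replicate 4 and 2874 without replicate 3. Those called higher, 852 with all libraries, were 740, 666 and 936.

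The calls at gene ends were mostly lower under each of the 3 scalings run, and the split between higher and lower moved with the scaling. As deposited, all tested intervals had a median log2 fold change of 0.08 in Ctrl and 0.12 in Paused, while that of gene-end intervals was -0.04 and -0.08. Under DESeq2 size factors all intervals moved down by 0.07 and 0.10, and the called members became 1254 in Ctrl (242 higher, 1012 lower) and 4544 in Paused (536 higher, 4008 lower). Under size factors 7.58% of all tested intervals were called in Ctrl (2.83% higher, 4.75% lower) and 14.7% in Paused (6.01% higher, 8.65% lower), so that the majority over all intervals turned from higher to lower. TMM factors gave 1189 members (254 and 935) and 4241 (563 and 3678), where all intervals had 7.51% (2.96% and 4.55%) and 14.4% (6.31% and 8.09%). Relative to the median of all intervals, gene ends stood at -0.12 in Ctrl and -0.20 in Paused under each of the 3 scalings. A factor per library shifts all intervals nearly alike, so this relative value could hardly differ between scalings. At gene starts the median was -0.06 and -0.13 under the authors' scaling and negative under the others. That of 3′ ends was 0.04 and 0.09, and it turned to -0.03 in Ctrl under both other scalings and to -0.01 (size factors) or 0.00 (TMM) in Paused.

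The fold change varied with the level of an interval, at gene ends and elsewhere. In the lowest decile of gene-end levels in Ctrl the median log2 fold change was 0.07 for gene ends and 0.22 for other intervals, in the 5th -0.10 and 0.00, and in the highest -0.03 and -0.07. In Paused the lowest decile had 0.20 and 0.34, and the highest -0.15 and -0.18. Members were therefore set against other intervals of equal mean level, in 20 bins, with a value for every library. A value above 0 means that gene ends were more open than other intervals of their level in that library.

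At equal level the knockouts differed from WT by -0.033 on the log2 scale in Ctrl and by -0.015 in Paused, both within the spread between libraries. WT replicates 1 to 4 in Ctrl had 0.055, 0.027, -0.033 and 0.088, Smad2_KO1 had 0.006, -0.098, 0.014 and 0.029, and Smad2_KO2 had -0.014, -0.017, 0.049 and 0.038. The groups overlapped, and WT replicate 3 and Smad2_KO1 replicate 2 were the lowest of their groups. In Paused WT had 0.065, -0.046, -0.036 and 0.096, with replicates 1 and 4 above all 8 knockout libraries, which ran from -0.017 to 0.031, and replicates 2 and 3 below them. Without WT replicate 4 the Paused difference turned to 0.008. The difference was -0.020 (Ctrl) and -0.007 (Paused) at gene starts.

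At 3′ ends it was -0.050 in Ctrl and -0.029 in Paused, with little spread in WT. There WT had 0.022, 0.039, 0.047 and 0.036 in Ctrl, and 7 of the 8 knockout libraries lay below all 4 of them, the exception being Smad2_KO2 replicate 4 with 0.032. In Paused the 4 WT values lay between 0.017 and 0.031, and 7 of 8 knockout values lay below the lowest of them, Smad2_KO1 replicate 3 with 0.022 being the exception. By median log2 fold change relative to others of equal level, 3′ ends stood at -0.04 in Ctrl and -0.03 in Paused. Bins from 1000 to 3000 bases from a known 5′ end had -0.09 to -0.02 and -0.12 to -0.04. The lower value in the knockouts was thus not particular to 3′ ends. With a window of 2000 bases the equal-level difference over all gene ends was -0.047 in Ctrl and -0.027 in Paused. A score over the members has no test here.

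**Figure D2:**
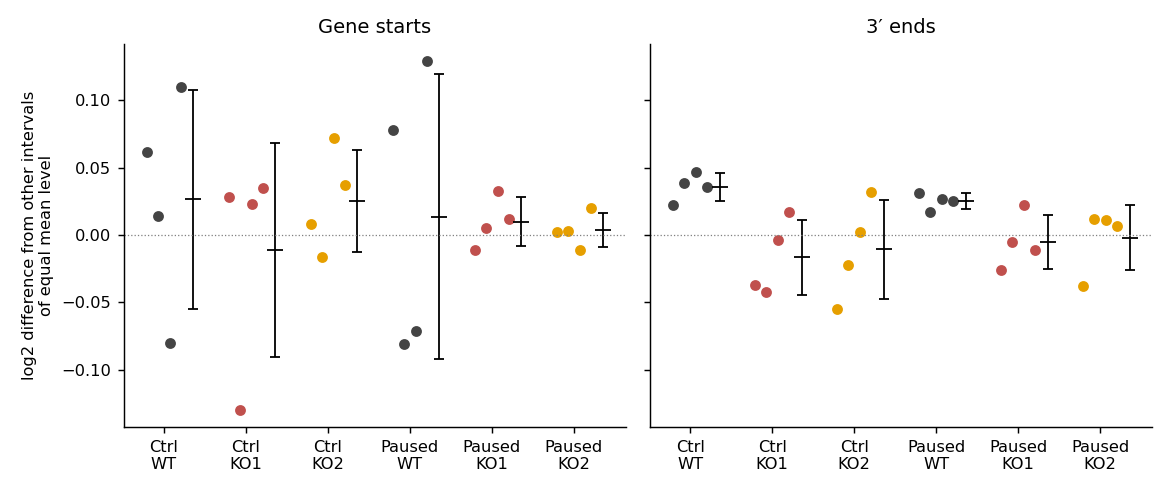
Mean log2 difference between gene-end intervals and other intervals of equal mean level, 1 point per library, for gene starts (left) and 3′ ends (right), with mean and SD (n = 4) beside each group. The groups overlap at gene starts, and at 3′ ends 7 of 8 knockout libraries of each table lie below every WT library.

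By share of Ctrl signal, gene ends of WT held 22.8 ± 1.39%, those of Smad2_KO1 22.0 ± 1.20% and those of Smad2_KO2 22.2 ± 0.478% (SD, n = 4). In Paused the shares were 25.2 ± 1.87%, 23.7 ± 0.421% and 23.6 ± 0.679%. The WT libraries of Paused fell into a high pair, replicates 1 and 4 with 26.7% and 27.0%, and a low pair, replicates 2 and 3 with 23.8% and 23.4%. Knockout minus WT was -0.70 percentage points in Ctrl and -1.61 in Paused, the latter -1.03 without WT replicate 4 and -2.22 without WT replicate 3. The same WT libraries that stood high or low in share did so in the equal-level value, and their part in the called counts is shown by the counts without them above.

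Fewer gene-end intervals were called than other intervals of their level. At matched level 8.78% of other intervals were called in Ctrl and 20.3% in Paused, against 3.82% and 11.9% of the members, and this difference was not tested. At gene starts the shares were 3.34% against 9.48% in Ctrl and 13.2% against 23.8% in Paused. For 3′ ends they were 4.57% against 7.32% and 9.92% against 14.1%. The low share did not end at the 1 kb limit. From 900 to 1000 bases from an end 4.42% were called in Ctrl and 11.1% in Paused. From 1000 to 1100 bases away the shares were 4.63% and 10.4%. In Ctrl, bins from 1500 to 3000 bases inside genes had 3.84% to 4.92% called, and those as far upstream 5.35% to 7.51%. Other intervals of the 3rd decile of level, which holds the medians of these bins, had 7.48%. In the highest decile of levels in Ctrl 0.465% of gene-end and 4.99% of other intervals were called, and in Paused 19.1% and 35.6%. Both the width of the fold changes and the noise differ between the classes. The interquartile range of log2 fold change at starts was 0.233 in Ctrl against 0.289 for other intervals of their level. The median SD within WT was higher at starts, 0.206 against 0.178 in Ctrl and 0.227 against 0.181 in Paused. The part of that noise in the lower share of calls was not tested.

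**Figure D3:**
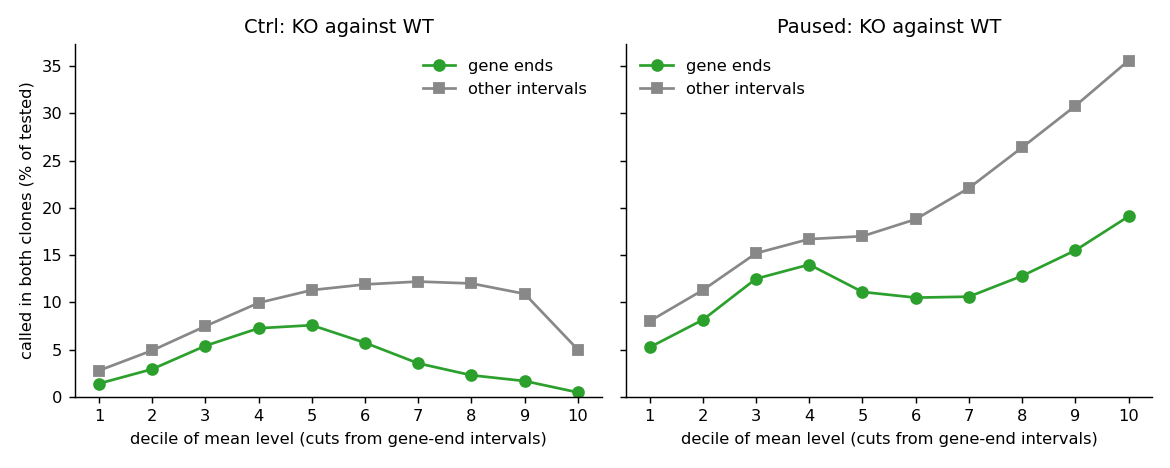
Percent of tested intervals called in both knockout lines, by decile of mean level with limits taken from gene-end intervals, for gene-end intervals and for all other intervals. Gene ends lie below other intervals in every decile of both tables, for example 0.465% against 4.99% in the highest decile of Ctrl.

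Promoters with few CpG were called more often than CpG-rich ones. From the poorest to the richest CpG quartile, 10.0%, 7.18%, 1.5% and 0.663% of tested windows were called in Ctrl, with 43, 107, 45 and 19 calls. In Paused the shares were 19.1%, 20.6%, 16.9% and 8.5%, and in the richest quartile 240 of 241 calls were lower in the knockouts. Median levels differ between these quartiles, as given above, so level and CpG content are not separated by these shares. Among the 996 Paused windows called lower, 60.5% held CCAAT against 39.2% of all windows and 43.8% of Paused windows with an interval, shares that are not matched for level or CpG content. CAGAC was in 49.3% of them and in 48.8% of all windows.

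The tables shared many calls. Of 684 Ctrl-called gene-end intervals that matched an interval tested in Paused, 396 were called in Paused in the same direction (57.9%), 170 higher and 226 lower, and 0 in the opposite one. They were 17.8% of the 2222 Paused-called ones. Over all matched intervals the shares were 60% and 33%. The treatments have different libraries, and whether the knockout effect differs between them was not tested, since the tables were normalized separately.

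Among well-covered gene ends, at or above the median level, 294 were called in Ctrl (61 higher, 233 lower) and 1439 in Paused (71 higher, 1368 lower). Other intervals as strong were called more often, and also mostly lower. In the 6th decile of level, which starts at the median, 4.28% of gene ends and 7.61% of other intervals were called lower in Ctrl. In Paused these were 8.38% and 13.6%. The highest decile had 0.372% and 4.39% in Ctrl and 19.1% and 35% in Paused. Of the called gene ends at or above the median, the 6 highest and 6 lowest of each table by fold change were taken. The smaller change of the lines was the measure, and most of these intervals are described here. The higher ones had log2 fold changes of 0.66 to 1.16, and 4 of the 6 of Paused were also among the 6 of Ctrl.

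Pnpla1 encodes a lipid enzyme of the patatin family that is needed for the skin barrier. Its interval on chromosome 17, from 28858301 to 28858501, lies just inside the gene, with its midpoint 115 bases from the start in the gene table, and overlaps the printed window. In Ctrl WT had 56.61, 68.97, 61.33 and 78.72 normalized reads, Smad2_KO1 148.8, 147, 154.6 and 145.6, and Smad2_KO2 134.3, 131.1, 147.7 and 129.8. Each knockout library was far above every WT library. In log2, Smad2_KO1 exceeded WT by 1.16 and Smad2_KO2 by 1.03 (SE 0.12, limma adjusted p = 3.7e-09 and 7.42e-08). The WT values of Paused were 103.6, 108.4, 135.9 and 115.2 and the 8 knockout values ran from 188.1 to 268.2 (log2 0.95 and 0.90, SE 0.11, limma adjusted p = 9.68e-08 and 2.9e-07). The CpG-poor sequence of this window is printed above.

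Plagl1, an imprinted zinc finger gene that restrains growth, had its interval at the start (chromosome 10, 13090663 to 13090863 in Ctrl). WT had 69.4, 52.0, 81.0 and 87.4, Smad2_KO1 126.5, 119.2, 139.6 and 128.2, and Smad2_KO2 110.2, 156.5, 149.8 and 167.1, without overlap (log2 0.84 and 1.01, SE 0.14, limma adjusted p = 2.66e-05 and 1.12e-06). Among Paused libraries, WT had 74.5, 56.9, 76.6 and 120.5, and WT replicate 4 lay above Smad2_KO2 replicate 1, with 115.9. The other knockout libraries had 136.8 to 184.9 (log2 0.87 and 0.98, SE 0.15, limma adjusted p = 6.05e-05 and 1.18e-05). The sequence is CpG-rich, so the higher intervals are not of 1 promoter type.

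On chromosome 5, 3 higher intervals lay at neighbouring genes of families with close copies, where reads may be shared between copies, so their levels are uncertain. Gm20385, a predicted gene, had its interval at 104662194 to 104662394, inside the gene. WT had 127.1, 114.7, 106.2 and 145.6, Smad2_KO1 282.1, 245.7, 258.6 and 243.7 and Smad2_KO2 239.5, 273.9, 224.2 and 246.6 in Ctrl (log2 1.06 and 1.00, SE 0.10, limma adjusted p = 1.83e-09 and 7.67e-09). All knockout libraries exceeded WT here as in Paused, where log2 fold changes were 1.14 and 1.15. Zfp951, a zinc finger gene, had 57.7, 64.5, 59.1 and 50.7 in WT at 104859827 to 104860027, also inside the gene, and 104.2 to 152 in the knockouts (log2 1.16 and 1.15, SE 0.13, limma adjusted p = 2.01e-08 and 2.51e-08). Abcg3, a gene of the ABC transporter family, had its interval 681 bases beyond the 3′ end, at 104934276 to 104934476. WT had 60.9, 58.2, 83.2 and 63.6 and the knockouts 101.7 to 193.8 (log2 1.12 and 1.15, SE 0.14, limma adjusted p = 3.53e-07 and 2.35e-07).

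Ube2l6 encodes the conjugating enzyme for the interferon-induced modifier Isg15. Its interval lay inside the gene near the 3′ end (chromosome 2, 84809546 to 84809746). WT values were 44.9, 45.7, 89.8 and 70.1 and those of the knockouts 98.2 to 143.9 (log2 0.93 and 0.98, SE 0.15, limma adjusted p = 2.82e-05 and 1.15e-05). Further intervals, 2 in number, joined the highest in Paused. Rpl39l, a ribosomal protein gene with a close paralogue, had its interval at the start (chromosome 16, 10170095 to 10170295), with 144.7, 136.3, 138.1 and 165.5 in WT and 229.8 to 270.1 in the knockouts. It rose by 0.75 and 0.80 in log2 (SE 0.10, limma adjusted p = 1.01e-06 and 2.9e-07), and the paralogue makes its level uncertain. Nudt12, an NADH hydrolase gene, had its interval at an end of the gene (chromosome 17, 59013266 to 59013466), with 117.9 to 144.9 in WT and 188.3 to 240.1 in the knockouts (log2 0.66 and 0.69, SE 0.10, limma adjusted p = 1.71e-05 and 1.15e-05).

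Klf6, a zinc finger transcription factor, had its interval 201 bases beyond the 3′ end (chromosome 13, 5870494 to 5870694). WT had 134.6, 130.8, 169.8 and 156.4, Smad2_KO1 65.8, 68.9, 71.2 and 99.3 and Smad2_KO2 76.2, 90.1, 58.4 and 94.6, with no overlap. The Ctrl difference was -0.96 and -0.90 in log2 (SE 0.14, limma adjusted p = 6.49e-06 and 1.87e-05), and that of the matched Paused interval had the same values. Tmem54, a membrane protein gene, had its interval over the start printed above (chromosome 4, 129105439 to 129105639). WT had 129.2, 119.1, 112.8 and 159.6, Smad2_KO1 83.8, 64.8, 77.8 and 71.6 and Smad2_KO2 73.2, 81.9, 71.2 and 69.4. The fall was -0.79 and -0.80 in log2 (SE 0.13, limma adjusted p = 4.54e-05 and 3.98e-05), and -0.58 and -0.57 in Paused.

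Irgm1, an interferon-induced GTPase, had 164.5, 161.2, 201.5 and 264.2 in WT in an interval before its start (chromosome 11, 48871422 to 48871622) and 91.3 to 124.3 in the knockouts (log2 -0.88 and -0.79, SE 0.13, limma adjusted p = 4.23e-06 and 2.68e-05). No Paused interval matched it. Glyatl3, a glycine acyltransferase-like gene, had its interval 321 bases beyond the 3′ end (chromosome 17, 40904306 to 40904506), with 180.9 to 207 in WT and 88.1 to 148 in the knockouts (log2 -0.71 and -0.80, SE 0.13, limma adjusted p = 0.000132 and 2.39e-05). Mab21l4, with an interval inside the gene (chromosome 1, 93160238 to 93160438), had the largest fall of these 6 in Ctrl but also the largest spread in WT, with 109, 71.7, 190.6 and 222.2. Knockout values were 49.9 to 72.2, and Smad2_KO2 replicate 1 with 72.2 lay above WT replicate 2 (log2 -1.11 and -1.16, SE 0.19, limma adjusted p = 4.39e-05 and 2.2e-05).

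Among the lower intervals of Paused, Cavin1 encodes the coat protein of caveolae, and its interval lies inside the printed window (chromosome 11, 100970622 to 100970822). WT had 237.5, 196.4, 242.8 and 288.7, Smad2_KO1 137.8, 137.7, 158.9 and 167.8 and Smad2_KO2 130.8, 109.5, 142.6 and 152.1, with no overlap (log2 -0.67 and -0.84, SE 0.11, limma adjusted p = 7.33e-05 and 2.52e-06). The matched Ctrl interval, at log2 -0.67 and -0.59, was called too. Pcdhga9, 1 of the clustered protocadherin genes that encode neuronal adhesion proteins with near copies side by side, fell by 0.83 and 0.89 on the log2 scale (SE 0.11, limma adjusted p = 8.56e-07 and 2.63e-07). WT had 234.2, 220.1, 238.4 and 264.9 and the knockouts 115.1 to 146.8, though which gene of the cluster the interval serves is uncertain. Spink1, a trypsin inhibitor gene, had 144.6 to 189.4 in WT and 77.03 to 111.2 in the knockouts (log2 -0.78 and -0.80, SE 0.12, limma adjusted p = 2.71e-05 and 2.09e-05). The matched Ctrl interval of Spink1 was not called (log2 -0.29 and -0.40, limma adjusted p = 0.0733 and 0.0123).

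Spo11, the enzyme that makes the breaks of meiotic recombination, had its interval inside the gene (chromosome 2, 172977566 to 172977766), with 226.7, 171.7, 188.8 and 193.3 in WT and 107.8 to 147.7 in the knockouts (log2 -0.63 and -0.71, SE 0.11, limma adjusted p = 0.000124 and 2.62e-05). No Ctrl interval matched it. Atp1b2, a subunit of the sodium pump, had its interval at an end of the gene (chromosome 11, 69605898 to 69606098), with 315 to 402.6 in WT and 203.2 to 272.1 in the knockouts (log2 -0.63 and -0.61, SE 0.10, limma adjusted p = 2.42e-05 and 3.8e-05). Il18, a cytokine of the interleukin 1 family, had its interval inside the gene 193 bases from the start (chromosome 9, 50554793 to 50554993), with 242.6 to 294.5 in WT and 158.6 to 205.5 in the knockouts (log2 -0.61 and -0.62, SE 0.10, limma adjusted p = 4.39e-05 and 3.65e-05). Each of the 24 higher and lower intervals taken by this rule kept its call and its direction in all 23 alternative settings.

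**Figure D4:**
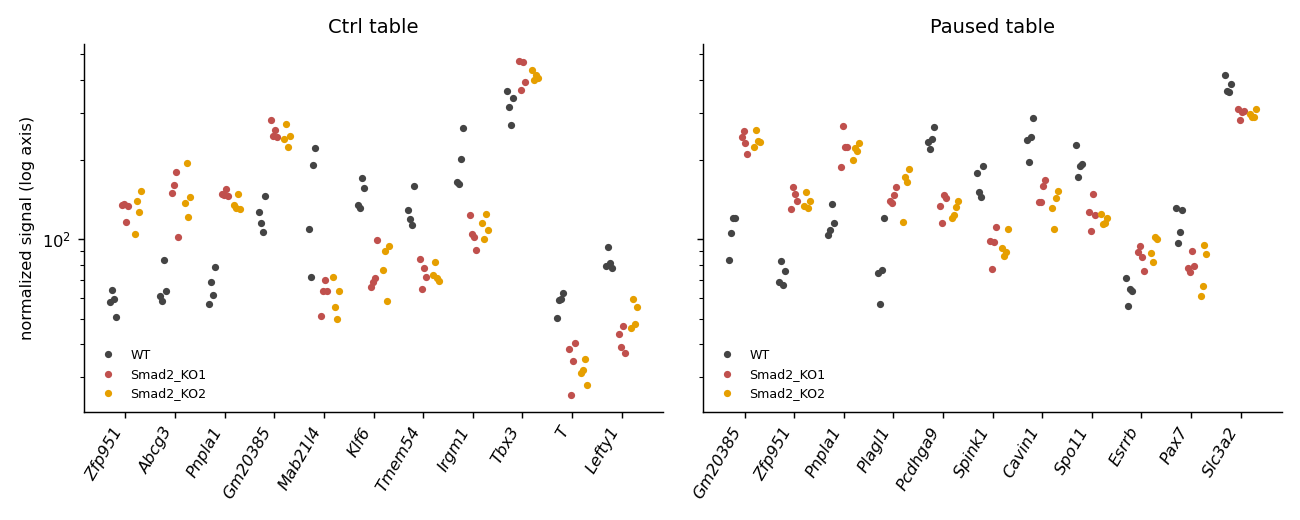
Normalized signal on a log axis in each library for gene-end intervals named in the text, 4 higher, 4 lower and 3 list genes per table. At Pnpla1 every knockout library lies above every WT library in both tables, and at Cavin1 every knockout library lies below; levels of the tables were scaled separately.

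Gene lists were then read through the strongest gene-end interval of each gene. Over all genes with such an interval tested, 3.54% were called in Ctrl (1.20% higher, 2.34% lower) and 13.4% in Paused (2.50% higher, 10.9% lower). The median log2 fold change was -0.06 and -0.12.

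Among 17 pluripotency genes tested in each table, 1 was higher in Ctrl, and 1 was higher and 1 lower in Paused. Tbx3, a T-box factor of naive cells, had 363.2, 317.1, 269.4 and 340.8 in WT, 473.6, 366, 469.5 and 395.1 in Smad2_KO1 and 436.9, 399.5, 416.4 and 407.6 in Smad2_KO2 in Ctrl. The knockout libraries all exceeded WT (log2 0.40 and 0.37, SE 0.09, limma adjusted p = 0.00246 and 0.00529), and the call ended when each chromosome was centred (larger limma adjusted p 0.0858). Esrrb, an orphan nuclear receptor of the naive network, rose in Paused from 71.2, 55.8, 64.7 and 63.6 in WT to 75.5 to 102.2 (log2 0.43 and 0.54, SE 0.13, limma adjusted p = 0.018 and 0.0032). Its call was lost under size factors (0.0709), TMM factors (0.0614), centred chromosomes (0.159), edgeR (0.0647) and DESeq2 (0.179), and without WT replicate 2 (0.0527) or Smad2_KO1 replicates 1 (0.05) or 2 (0.07). Sall4 fell in Paused from 419.8 to 455.3 in WT to 332.6 to 389.3 (log2 -0.28 and -0.32, SE 0.08, limma adjusted p = 0.00946 and 0.00368), a call lost without Smad2_KO1 replicate 3 (0.0508). Sox2, Nanog and Zfp42 were not called in either table.

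Polycomb-bound developmental genes are held silent in stem cells by histone modification. In Ctrl 1 of 24 was lower and 0 higher, and in Paused 5 of 26 were lower and 0 higher. This direction was not particular to them. Over all genes 2.34% were lower and 1.20% higher in Ctrl, and 10.9% and 2.50% in Paused. Of all the lists, only that of pluripotency genes had a higher call in either table. T, the mesoderm factor brachyury and a known Nodal-responsive gene, had 50.2, 59.1, 59.1 and 62.6 in WT, 38.5, 25.7, 34.7 and 40.4 in Smad2_KO1 and 31.1, 31.9, 35.1 and 28.2 in Smad2_KO2 in Ctrl. All knockout libraries lay below WT (log2 -0.73 and -0.85, SE 0.17, limma adjusted p = 0.00336 and 0.000666). T was lower in Paused too (log2 -0.52 and -0.55), with overlapping groups, and the call was lost without WT replicates 1 (larger limma adjusted p 0.081) or 4 (0.133), Smad2_KO1 replicates 1 (0.119) or 4 (0.0515) or Smad2_KO2 replicate 3 (0.103). The others called in Paused were Hoxb1 (log2 -0.52 and -0.54), the neural and muscle factor Pax7 (-0.51 and -0.58), the endoderm factor Sox17 (-0.38 and -0.54) and Lhx1 (-0.51 and -0.57). Pax7 held its call in all settings. Hoxb1 lost it without WT replicate 4 (0.0556), Lhx1 without WT replicate 1 (0.0585), and Sox17 without WT replicates 1, 3 or 4 (0.131, 0.0565 and 0.07) or Smad2_KO1 replicates 1 or 4 (0.209 and 0.118).

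The Nodal and TGF-beta list had 1 lower of 21 tested genes in Ctrl and 2 lower of 23 in Paused, with none higher. Lefty1, the secreted Nodal antagonist that Nodal itself induces, had 79.0, 93.2, 81.0 and 77.6 in WT in Ctrl, against 37.0 to 46.9 in Smad2_KO1 and 46.1 to 59.2 in Smad2_KO2 (log2 -0.98 and -0.66, SE 0.15, limma adjusted p = 1.26e-05 and 0.00227). The Paused gene-end interval was another one, with 50.3 to 77.7 in WT and 29.96 to 63.99 in the knockouts, and was not called in both lines (log2 -0.57 and -0.38, limma adjusted p = 0.0257 and 0.144). Ski, a corepressor of Smad proteins, was lower in Paused with overlapping groups. WT had 620.7, 416.5, 420.8 and 573.4 there and the knockouts 344.4 to 435.2 (log2 -0.39 and -0.40, SE 0.10, limma adjusted p = 0.0045 and 0.00423). Acvr1b, a Nodal and activin receptor, was lower by log2 -0.36 and -0.32, a call lost without WT replicates 1 (0.184) or 4 (0.124), Smad2_KO1 replicate 2 (0.0765) or Smad2_KO2 replicates 2, 3 or 4 (0.0958, 0.0977 and 0.0657). At Lefty2 the gene-end values were 20.8 to 32.3 in WT and 18.2 to 24.4 in the knockouts in Ctrl, not called.

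Of the lipid and Ppar list, 0 of 30 genes were called in Ctrl by limma and 0 higher and 3 lower of 29 in Paused. Pparg, the nuclear receptor named in the title of the series, had a gene-end interval in Paused alone, near the lower limit of detection, with 9.72 to 12.9 in WT and 10.5 to 21.3 in the knockouts (limma adjusted p = 0.697 and 0.223). The 3 lower genes were Cpt1b (log2 -0.44 and -0.48), the mitochondrial fatty acid importer of muscle, Dgat1 (-0.19 and -0.21), which makes triglyceride, and Scd1 (-0.26 and -0.26), the stearoyl-CoA desaturase. Each lost its call without WT replicate 1 or WT replicate 4, with larger limma adjusted p of 0.0533 and 0.107 for Cpt1b, 0.1 and 0.0893 for Dgat1 and 0.0549 and 0.105 for Scd1. The same held for Smad2_KO1 replicate 2 (0.0792 for Cpt1b, 0.13 for Dgat1 and 0.0802 for Scd1). Cpt1b lost its call also without Smad2_KO1 replicate 1 or Smad2_KO2 replicate 2 (0.0677 and 0.0563). Dgat1 and Scd1 lost theirs without Smad2_KO1 replicates 3 or 4 or Smad2_KO2 replicates 1, 3 or 4 (0.0509 to 0.107), and Dgat1 further without Smad2_KO2 replicate 2 (0.0567) and with the knockout libraries averaged (0.0529).

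Of 20 lysosome genes, 0 were called in Ctrl and 2 were lower in Paused. Of these, Neu1, the lysosomal sialidase, had log2 fold changes of -0.25 and -0.29 and lost its call without WT replicate 1 (0.0721) or Smad2_KO1 replicates 2 (0.0721) or 3 (0.0631). Of 18 amino acid response genes 1 was lower in Ctrl, Phgdh of serine synthesis (log2 -0.39 and -0.36), and 4 in Paused. The call of Phgdh was lost without WT replicate 1, Smad2_KO1 replicate 2 or Smad2_KO2 replicates 1, 2 or 3 (larger limma adjusted p 0.0658 to 0.0908). Slc3a2, the heavy chain of amino acid transporters, had 359.3 to 418.8 in WT and 283.6 to 311.8 in the knockouts in Paused (log2 -0.34 and -0.35, SE 0.08, limma adjusted p = 0.00307 and 0.00237), and Ddit4, Chac1 and Atf5 had log2 fold changes from -0.29 to -0.19. The interval taken for Atf5 lies nearest to Nup62. Ddit4 lost its call without WT replicates 1 or 4 or Smad2_KO1 replicates 1 or 3 (0.051 to 0.0881), Atf5 without any 1 library except WT replicate 2 and Smad2_KO2 replicate 4 (0.0518 to 0.155), and Chac1 without any 1 library except WT replicates 2 and 3 (0.0504 to 0.204) and with the knockout libraries averaged (0.07).

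Ribosome biogenesis genes had 1 lower of 22 in Ctrl, Mycn (log2 -0.82 and -1.04), a growth-promoting Myc factor, and 2 in Paused, Nop58 and Rrp9. The Mycn call was lost without Smad2_KO1 replicate 3 (0.0723). Nop58 lost its call without WT replicate 1, Smad2_KO1 replicates 2 or 3 or Smad2_KO2 replicates 2 or 3 (0.0629 to 0.0732), and Rrp9 without WT replicates 1 or 4, Smad2_KO1 replicate 2 or Smad2_KO2 replicates 2 or 3 (0.0527 to 0.089). Of 11 replication-dependent histone genes tested in Paused 2 were lower, Hist1h2ac and Hist3h2a, and 0 of 14 in Ctrl. Histone genes have close copies, so their reads may be shared between them, and the interval of Hist3h2a lies nearest to Trim17. Hist1h2ac lost its call without Smad2_KO1 replicate 2 (0.0557). The 18 broadly expressed genes had 0 calls in Ctrl and 4 lower in Paused, Rplp0, Rps18 and Rps3 of the ribosome and Psmb2 of the proteasome. All 4 calls depended on single libraries. Rplp0 lost its call without WT replicate 1 or Smad2_KO1 replicates 2 or 3 (0.0607 to 0.0792), and Rps18 without WT replicate 4 or Smad2_KO1 replicates 1 or 2 (0.0653 to 0.0807). For Rps3 it was lost without WT replicates 1 or 4 or Smad2_KO2 replicates 1 or 2 (0.0511 to 0.089), and for Psmb2 without WT replicates 1 or 4 or Smad2_KO1 replicates 2, 3 or 4 (0.0684 to 0.135). Markers of other cell types were mostly not called. Among fibroblast genes Thy1, a surface glycoprotein, was lower in both tables (1 of 10 in Ctrl, 2 of 10 in Paused with Col1a1), the primitive endoderm list had Sox17 as its only call (0 of 11 and 1 of 11) and genes of other tissues had Krt14 (0 of 12 and 1 of 13). The 2-cell-like list had 0 calls of 3 and of 2. Thy1 lost its Ctrl call without WT replicate 4, Smad2_KO1 replicates 1 or 2 or Smad2_KO2 replicates 2 or 3 (0.0532 to 0.103), Col1a1 without WT replicates 1 or 4, Smad2_KO1 replicate 2 or Smad2_KO2 replicate 2 (0.0582 to 0.124), and Krt14 without Smad2_KO1 replicate 3 (0.0516). Mean levels at gene ends of the fibroblast list ran from 17.8 to 173.8 in Ctrl, and the part of other cell types in the results was not tested.

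The effect of pausing in WT cells was described on intervals that matched between the tables. Matched 1 to 1 where each overlapped the other by at least 50%, 215826 intervals were common, 17372 of them at gene ends in both tables. A further 4710 Ctrl and 3968 Paused gene-end intervals had no match. The tables were normalized separately, so no test was made, and values are given as CPM, each library's matched signal being scaled to the same total. On this scale the mean share of gene ends was larger after pausing, by about the spread between libraries.

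Matched gene-end intervals held 24.9%, 23.7%, 22.2% and 25.3% of the matched signal in the untreated WT libraries and 27.4%, 24.5%, 24.1% and 27.7% in the paused ones. Replicates 1 and 4 were the highest and replicate 3 the lowest in both groups. By replicate number, paused minus untreated was 2.43, 0.777, 1.90 and 2.41 percentage points. Whether the numbers pair these libraries was not tested. The means were 24.0 ± 1.43% and 25.9 ± 1.91% (SD, n = 4), a difference of 1.88 percentage points that is about the SD of the groups, which overlapped. It was 1.25 without untreated replicate 3 and 2.50 without paused replicate 3. Of it, 1.508 percentage points lay at gene starts, with 17.9 ± 1.19% and 19.4 ± 1.598%, and 0.347 at ends of genes without strand, with 4.389 ± 0.2629% and 4.736 ± 0.3492%. At 3′ ends the shares were 1.715 ± 0.0277% and 1.739 ± 0.0418%.

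At equal level, gene ends were higher in Paused by 0.068 on the log2 scale. The untreated libraries had -0.001, -0.028, -0.104 and 0.030 and the paused ones 0.096, -0.023, -0.019 and 0.118, so paused replicates 2 and 3 lay within the untreated range. By replicate number, paused minus untreated was 0.097, 0.004, 0.085 and 0.088. The difference between the group means was 0.085 at starts and 0.026 at 3′ ends. At 3′ ends the values were close together, from -0.022 to -0.002 untreated and from 0.011 to 0.022 paused, so that the groups did not overlap there. Without 1 library at a time the overall difference was 0.042 to 0.089.

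**Figure D5:**
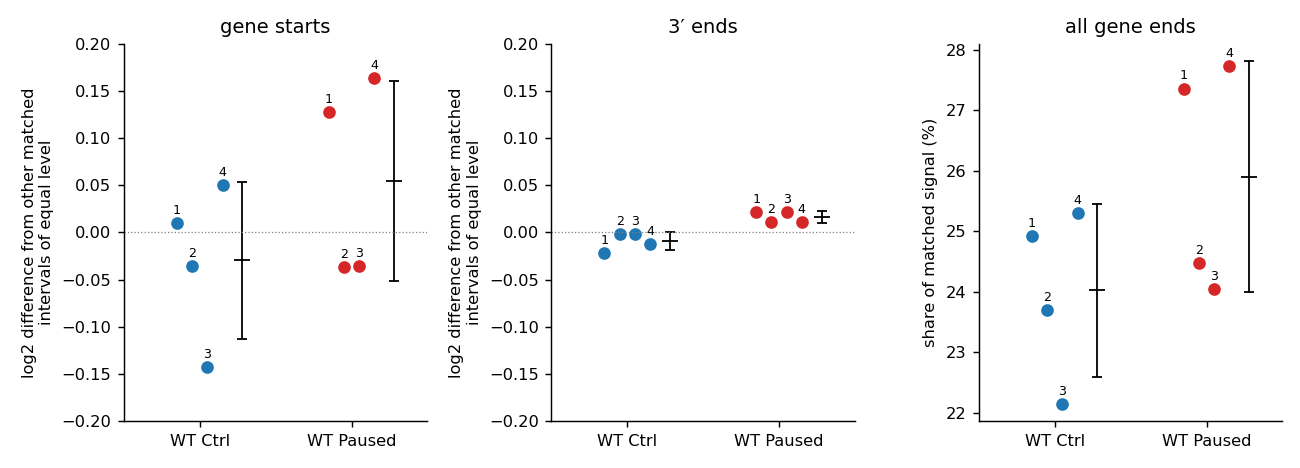
Matched intervals in WT libraries, untreated and paused, with replicate numbers, mean and SD (n = 4). The left and middle panels show the log2 difference from other matched intervals of equal level at gene starts and 3′ ends, and the right panel the share of matched signal at gene ends; the groups overlap in the left and right panels and not at 3′ ends.

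Single intervals were counted where all 4 paused values lay on 1 side of all 4 untreated values. Of 17189 matched gene-end intervals tested, 1952 were higher in all paused libraries (11.4%) and 857 lower (4.99%). Over all 208526 matched intervals 7.28% were higher and 11.0% lower. Other intervals of equal level had 13.6% and 11.1%, so against them the members stood out by fewer lower intervals rather than by more higher ones. At starts 12.6% were higher and 2.75% lower, and at 3′ ends 8.64% and 10.0%. Under the authors' scaling of each table the counts were 4412 higher (25.7%) and 376 lower (2.19%). All matched intervals had 14% higher and 5.62% lower on that scale. The direction of a single interval thus rests on the scale chosen between the tables, and 3147 were higher without paused replicate 3, where fewer values have to lie apart.

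Among well-covered gene ends, the largest differences upward were near 1 on the log2 scale. Serpinh1, the chaperone of collagen folding, had 11.6, 10.7, 12.0 and 13.8 CPM untreated and 24.9, 25.1, 23.0 and 28.5 paused at the start next to the sequence printed above (chromosome 7, 99353140 to 99353340), a log2 difference of 1.08 (1.25 under the authors' scaling). Ly6g6e, of the Ly6 family, had 11.2 to 12.2 and 22.9 to 27.0 (1.11). Art5, an ADP-ribosyltransferase gene, had 9.98 to 11.0 and 18.3 to 21.8 (0.99). H4c11, a histone H4 gene with many copies and therefore uncertain, had 13.8 to 16.8 and 28.4 to 30.5 (0.97). The interval 882 bases beyond the 3′ end of Eif3b, a translation initiation factor gene, had 9.43 to 10.6 and 18.2 to 21.1 (0.91). None of these 5 was called between knockout and WT in either table.

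Downward, the largest differences were mostly smaller. Aim2, the sensor of cytosolic DNA, had 19.9, 23.0, 22.1 and 18.8 untreated and 8.72, 10.6, 10.7 and 8.502 paused (log2 -1.12, and -0.94 under the authors' scaling), and it was also called lower in the knockouts in both tables. Dpy30, a core subunit of histone H3 lysine methyltransferases, had 19.0 to 24.8 untreated and 11.6 to 14.3 paused (-0.73), at an interval inside the gene near its 3′ end. Sulf1, a heparan sulfatase gene called lower in the Paused knockouts as well, had 26.1 to 31.1 and 16.0 to 20.3 (-0.70). Pdp1, the phosphatase that activates pyruvate dehydrogenase, had 13.0 to 15.3 and 6.44 to 11.9 (-0.69), and Gm42427 had 13.5 to 17.2 and 8.20 to 11.0 (-0.67) and was called lower in the Ctrl knockouts.

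The genes named next were chosen after their values were seen. Of the lipid list, 9 of 26 matched genes were higher in all paused libraries and 0 lower, with a median log2 difference of 0.21. Over all genes with a matched strongest interval in Ctrl 12.5% were higher and 3.47% lower, with a median of 0.11. Fabp3, a fatty acid binding protein, had 13.5, 11.4, 11.7 and 10.9 CPM untreated and 23.5, 21.6, 20.4 and 23.5 paused (log2 0.90). Cpt1b had 3.70 to 4.82 and 6.40 to 9.93 (0.80), and Cpt2, its partner in the inner mitochondrial membrane, 11.8 to 15.2 and 18.9 to 22.4 (0.60). Hadha and Ehhadh of fatty acid oxidation had 0.41 and 0.43, the nuclear receptor Ppard 0.32, lipoprotein lipase Lpl 0.29, and the triglyceride enzymes Dgat1 and Dgat2 0.25 and 0.36.

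Of 18 matched lysosome genes, 5 were higher in all paused libraries, among them Ctsl (log2 0.21), Sqstm1 (0.48), Wipi1 (0.16) and Hexa (0.53), and 0 were lower. Among histone genes 4 of 10 were higher, with the caution on copies given above. The Polycomb list had 4 of 19 (Hoxc10, Gata6, Sox17 and Nkx2-5), the pluripotency list 3 of 9 (Nanog 0.27, Esrrb 0.55 and Sall4 0.20) with Nr5a2 lower (-1.0), and the Nodal list 1 of 15, the inhibitory Smad7 (0.29). Of 13 amino acid response genes 2 were higher, Atf5 (0.29) and Cebpb. Cebpb, a bZIP factor, had 5.27 to 7.39 untreated and 11.3 to 15.3 paused (1.04) inside the gene near the 3′ end. Of 17 ribosome biogenesis genes, 0 lay apart in either direction. Among 16 broadly expressed genes Polr2a (0.52) and Rplp0 (0.14) were higher and Ywhaz lower (-0.59), and among 6 fibroblast genes Thy1 was higher (0.56) and Col1a2 lower (-1.40). Under the authors' scaling each of these differences was more positive, for example 1.08 for Fabp3, 0.45 for Nanog and -0.84 for Nr5a2.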

How the data were processed

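ATAC-seq signal was deposited as 2 tables, Ctrl and Paused, each with 12 libraries on its own set of intervals. Per the file headers the values are normalized signal, and the authors divided whole reads by 1 factor per library, as recovered from the steps of the values. Per the submitters' processing notes the build was mm10 and the tools were FastQC, Trim Galore, Bowtie2 2.4.1, MACS3 3.0.3 and DiffBind 3.16.0, with their roles not given in the sources used here. The authors' deposited log2 concentrations and fold changes, p-values and false discovery rates were not used here.

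Intervals were assigned by midpoint to the first and last coordinates of coding genes within 1 kb in a GRCm38 table, and strand and promoter sequences came from RefSeq (GRCm38.p6). Within each table, log2(value + 1) of intervals with a value of at least 10 in at least 4 libraries was fitted with limma 3.58.1 (R 4.3.3), and p-values were adjusted by Benjamini-Hochberg over all intervals tested, with a threshold of 0.05 in both lines. A fold change on this scale understates that of low intervals. The fit was tested on simulated libraries that were independent of each other, with changes larger than most found here. Such a run cannot judge calls of small changes, or the effect of the likeness between knockout libraries of the same number. Equal-level values used 20 bins of mean level. The reads of the intervals give the depth, and counting noise was checked by chi-square. Replicate numbers did not pair WT with knockout libraries (correlations of deviations -0.01 to 0.06). Alternatives included edgeR 4.0.16 and DESeq2 1.42.0 on the recovered reads, with other scalings, filters, pseudocounts and windows. Other steps used Python 3.11.15 with numpy 2.4.6, pandas 2.3.3 and matplotlib 3.10.9.

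The intervals named were the 5 highest in level per table, the 6 higher and 6 lower called ones at or above the median level with the largest smaller change of the lines, the 5 higher and 5 lower in paused WT without overlap, and the called genes of the lists, each read at its strongest gene-end interval. Members and lists were chosen with earlier results of these data known. Some intervals that this rule selects are not reported here.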

Additional observations from a re-analysis of the deposited data

Results flagged for a closer look

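Of 170 groups of 4 libraries that were checked, 15 had 1 library far from the other 3, measured by its gap to the nearest relative to the group's range. Chance gives about 1 in 20.

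Replicate 2 of Smad2_KO1 in Ctrl stood low at gene ends. Its log2 difference at equal level was -0.130 at gene starts, where the others had 0.023 to 0.035, and -0.104 at ends of genes without strand, where they had -0.000 to 0.018. Its share of signal was 20.21% at all gene ends (others 22.35% to 22.72%), 14.67% at starts (16.46% to 16.75%) and 3.726% at ends without strand (4.104% to 4.165%).

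Replicate 4 of Smad2_KO2 in Paused stood high in share of signal, with 24.57% at all gene ends (others 23.15% to 23.28%), 18.12% at starts (16.89% to 17.06%) and 4.56% at ends without strand (4.324% to 4.342%). Replicate 1 of that group was low at 3′ ends, with -0.038 at equal level against 0.007 to 0.012.

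Single intervals gave the other cases. Cdca2 had 817 in Ctrl Smad2_KO2 replicate 3 against 912.8 to 931.9. Zfp951 had 116.2 in Ctrl Smad2_KO1 replicate 3 against 134 to 135.7, and Klf6 had 99.34 in replicate 4 against 65.83 to 71.22. Tomm40 had 944.1 in Paused Smad2_KO1 replicate 3 against 953 to 954.2. In WT, in CPM of matched signal, Eif3b had 21.05 in paused replicate 1 against 18.24 to 18.72, and Sulf1 had 26.08 in untreated replicate 1 against 30.49 to 31.05.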

How the results depend on the processing

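In Ctrl the 822 called gene-end intervals became 535 and 1425 with windows of 500 and 2000 bases, which hold fewer or more intervals, 1254 under size factors, 1356 with chromosomes centred, 1299 by edgeR and 1667 with the knockout libraries averaged. In Paused (2507) they were 3761 with 2000 bases, 4544 under size factors, 4241 under TMM factors, 5082 with chromosomes centred and 4536 by edgeR. DESeq2 gave 660 and 3454. The calls over all tested intervals were 21391 and 39065 with chromosomes centred, 21977 and 37848 by edgeR and 11510 and 23169 by DESeq2. Apart from the windows, the cause was not tested. Leaving out 1 library gave 527 to 819 in Ctrl and 1480 to 3810 in Paused. The calls over all tested intervals were then 13969 to 21510 and 25212 to 39117. The equal-level differences between knockout and WT were -0.057 to -0.017 in Ctrl and -0.038 to 0.008 in Paused without 1 library, and the shares of signal differed by -1.31 to -0.30 and -2.22 to -1.03 percentage points. For WT pausing the ranges were 0.042 to 0.089 at equal level, 1.25 to 2.50 percentage points, 2124 to 3147 intervals higher and 1025 to 1202 lower. The authors' scaling gave 4412 higher and 376 lower, where all matched intervals had 14% and 5.62%. Windows of 500 and 2000 bases gave 476 and 1615 lower. A replicate block gave 930 and 3220 called members (22479 and 42322 over all tested intervals) and left the equal-level differences at -0.033 and -0.015. The numbers did not pair WT with knockout libraries, while libraries of the knockout lines with the same number resembled each other, and whether they pair untreated with paused WT libraries was not tested. Of 61 called intervals named in the text, 32 kept their call in every alternative setting and 29 lost it in at least 1, with 0 reversed. In Paused, fitting the compared groups alone ended the calls of Sox17 (larger limma adjusted p 0.0526), Acvr1b (0.0653), Atf5 (0.0807), Chac1 (0.0862), Dgat1 (0.0821), Psmb2 (0.0595), Rrp9 (0.059) and Scd1 (0.0553), and testing without the filter on low values ended those of Atf5 (0.0506) and Dgat1 (0.0501). Alternatives on the matched WT intervals and the shares under other settings were chosen in part after seeing the data. Low levels limit 3′ ends, where the median level in Ctrl is 20.8 normalized reads.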
